A study of Rattus norvegicus with 6 samples.

Results

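The calcium sensors described here were 9 genes, the synaptotagmins Syt1, Syt2, Syt4, Syt6, Syt7, Syt11 and Syt14 and the MCTP genes Mctp1 and Mctp2, out of 32883 genes measured by RNA-seq in the vestibular epithelium of the rat. The group was chosen by the measured fold changes of Syt6 and Mctp1, whose counts were much lower after streptomycin in these same data, and the other 7 genes were added as paralogues, so all values of the streptomycin comparison are given for these genes as a description. Whether a gene of the group was called in the fit of all genes is also given only as a description, and supports nothing. Every one of the 9 symbols matched exactly 1 row of the count table.

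The tissue came from Long-Evans rats. The 3 STREP rats (2 males and 1 female) received streptomycin, an aminoglycoside antibiotic that is toxic to the sensory hair cells (HCs), subcutaneously at 500 mg/kg once a day for 6 weeks from post-natal day 21. The 3 Control rats (2 males and 1 female) received phosphate-buffered saline (PBS), the vehicle. Each library held the pooled 2 utricles and 6 cristae of 1 rat, so HCs, supporting cells, nerve endings and other cells of the dissected piece were read together, and fewer cells of a type cannot be told apart from less RNA per cell. The study treats these 6 libraries as 1 experiment, and no processing batch was recorded for them here. The titles of STREP replicates 1 and 2 share a number and differ in the letters after it, while the study's methods describe each sample as 1 animal. What the number and the letters stand for is not given in the titles. Of the 6 pairs of libraries within a group, STREP replicates 1 and 2 had the lowest chi-square per degree of freedom (49.6, against 53 to 171). This measure grows with depth, and these 2 libraries had the smallest totals, so it does not rank likeness. Whether they came from separate animals was not tested.

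Synaptotagmins are membrane proteins of secretory vesicles and the plasma membrane that carry a tandem pair of C2 domains, which in many members bind calcium and phospholipids and couple calcium entry to membrane fusion by the SNARE proteins. MCTPs (multiple C2 domain and transmembrane region proteins) carry several C2 domains ahead of membrane-spanning segments and reside mainly in the endoplasmic reticulum, where they have been linked to presynaptic calcium signalling. In HCs, exocytosis at the ribbon synapse depends on a further C2 protein, otoferlin, and the part played by synaptotagmins there is less settled.

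Proximal promoter sequences are shown first for the genes that fell, Syt6 and Mctp1, beside Syt11 and Mctp2, paralogues that were not called. The sequences are the 250 bases before the annotated start in RefSeq (rat build GRCr8, a later build than the one used for counting), read 5′ to 3′ on the strand of the gene. Capitals mark E-boxes, the letters CANNTG that basic helix-loop-helix factors such as ATOH1, a regulator of HC fate, can bind. The windows are chr2:193781226-193781475 (plus strand) for Syt6, chr2:176529776-176530025 (minus strand) for Syt11, chr2:7803234-7803483 (plus strand) for Mctp1 and chr1:135412695-135412944 (minus strand) for Mctp2.
Syt6: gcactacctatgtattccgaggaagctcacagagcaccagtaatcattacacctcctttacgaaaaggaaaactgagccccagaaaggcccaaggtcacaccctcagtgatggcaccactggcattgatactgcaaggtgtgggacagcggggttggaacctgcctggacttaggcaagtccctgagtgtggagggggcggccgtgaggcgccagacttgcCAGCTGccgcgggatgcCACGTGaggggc
Syt11: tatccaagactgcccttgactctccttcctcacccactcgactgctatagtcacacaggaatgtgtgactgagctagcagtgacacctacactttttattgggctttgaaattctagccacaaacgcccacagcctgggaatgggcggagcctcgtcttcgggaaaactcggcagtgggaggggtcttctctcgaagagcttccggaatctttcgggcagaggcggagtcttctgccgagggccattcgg
Mctp1: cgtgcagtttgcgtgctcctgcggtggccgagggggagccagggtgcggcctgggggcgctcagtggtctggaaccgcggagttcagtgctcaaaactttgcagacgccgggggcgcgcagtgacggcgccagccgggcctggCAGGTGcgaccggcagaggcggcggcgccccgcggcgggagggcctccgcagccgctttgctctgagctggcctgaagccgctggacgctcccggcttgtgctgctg
Mctp2: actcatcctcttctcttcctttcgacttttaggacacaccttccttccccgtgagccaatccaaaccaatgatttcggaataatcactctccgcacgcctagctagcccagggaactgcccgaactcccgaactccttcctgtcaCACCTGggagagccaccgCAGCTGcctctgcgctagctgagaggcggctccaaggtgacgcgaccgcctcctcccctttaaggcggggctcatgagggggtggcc

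Both strands were searched for 5 motifs, the E-box, its form CAGCTG, the GC box, the core of the cyclic AMP response element and the TATA box. These windows held 2 E-boxes in Syt6, 1 in Mctp1, 2 in Mctp2 and 0 in Syt11. Of the other members searched, none of them called, Syt1 held 1, Syt2 held 3 and Syt4 held 1. Of 33465 promoter windows of this length, 65.5% held at least 1 E-box, so the match was common. The E-box of the form CAGCTG, which is also counted among the CANNTG matches, was found once each in Syt6 and Mctp2, against 12% of all windows. It was also found once each in Syt1 and Syt2, whose windows are not shown. The letters TGACG (the core of a cyclic AMP response element), present in 18.2% of all windows, occurred once in Mctp1 and once in Mctp2. The GC box letters GGGCGG, in 30.5% of all windows, occurred once in Syt6 and once in Syt11, and TATAAA, in 12.9%, in none of these 4 windows. Of the 4, the window of Mctp1 was the richest in G and C, with 73.2%, against 58.4% in Syt6, 59.2% in Mctp2 and 54.8% in Syt11. None of the 5 motifs was found in Syt6 and Mctp1 and in neither paralogue.

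Library totals ran from 48568191 to 59906048 counts in Control and from 29333584 to 33744909 in STREP libraries, so depth separated the groups. Values below are normalised counts, which are the counts divided by a size factor per library (DESeq2 median of ratios). The detection floor was set at 3 counts per library, or between 1.84 and 4.49 normalised counts, and covers counting error only. A gene was called when its adjusted p-value over all genes (DESeq2 Wald test, Benjamini-Hochberg) was under 0.05 and its fold change exceeded 1.5 in either direction. Values are given in the order of replicates 1, 2 and 3 of each group, means with SD over n = 3 animals, and log2 fold changes (STREP minus Control) with SE. Values of different genes are not compared with each other as levels, because no transcript lengths were used.

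Among the 7 synaptotagmins, Syt6 had the most negative log2 fold change. Syt6 belongs with Syt3 and Syt10 to a branch of the family known for disulphide-linked dimers, and it is best known from the acrosome reaction of sperm. Its normalised counts were 1513, 1565 and 1783 in the Control animals, whereas the STREP animals had 390, 354 and 359. The groups lay far apart and the 3 STREP animals were close to one another. Group means were 1620 ± 143 and 368 ± 19.5, which gave a log2 change of -2.14 ± 0.17. STREP animals thus held between 21.9% and 24.1% of the Control mean.

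Mctp1, which codes for an endoplasmic reticulum protein with multiple C2 domains, had the most negative fold change of the 9 genes. Its normalised counts were 343, 507 and 424 in the Control animals, whereas the STREP animals had 45.3, 82.1 and 37.4. Every STREP value was below every Control value, and STREP replicate 2 kept the most transcript of the treated animals. Group means were 425 ± 81.8 and 54.9 ± 23.8, which gave a log2 change of -2.93 ± 0.35. STREP animals held between 8.81% and 19.3% of the Control mean. Among the 12131 genes that averaged 100 or more normalised counts, Mctp1 had the 3rd lowest and Syt6 the 9th lowest fold change. Both genes were chosen for low fold changes, so these ranks support nothing.

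**Figure D1:**
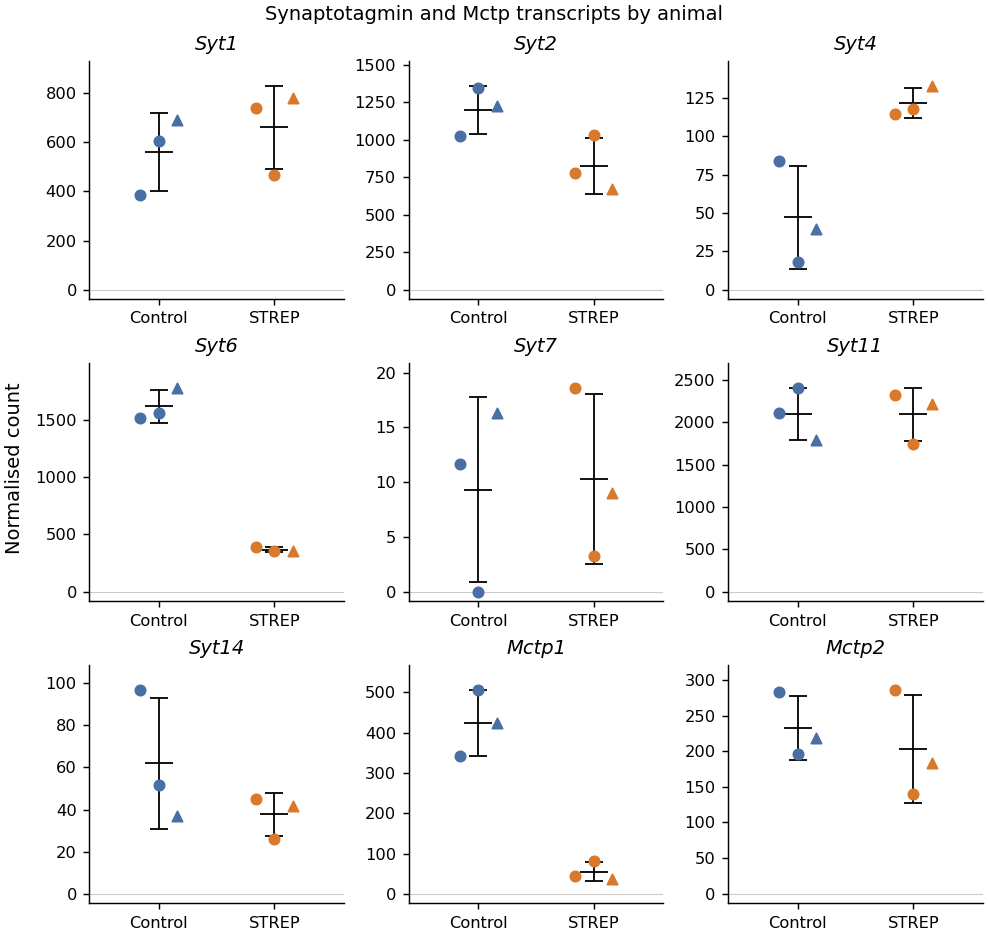
Normalised counts of the 9 genes in each animal (vertical axes, linear, 1 panel per gene), with Control in blue, STREP in orange, circles for males, triangles for females, and bars for mean ± SD (n = 3 per group). In Syt6 and Mctp1 all 3 STREP animals lie well below the Control animals, in Syt4 all 3 lie above, and in the other 6 genes the groups overlap.

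Mctp2, the paralogue of Mctp1, was not called. Its normalised counts were 283, 196 and 218 in the Control animals, whereas the STREP animals had 286, 139 and 184. The ranges overlapped, with the highest single value in a STREP animal. Its log2 change was -0.20 ± 0.34, with a 95% interval from -0.87 to 0.47. Because a ratio of 2 genes within a library needs no scaling between libraries, the counts of Mctp1 per count of Mctp2 were also compared. This ratio was 1.21, 2.58 and 1.94 in Control and 0.158, 0.589 and 0.203 in STREP animals, with no overlap.

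Syt1 and Syt2 are the fast calcium sensors of synchronous transmitter release at central and neuromuscular synapses. Syt1 had 384, 604 and 691 normalised counts in Control and 739, 469 and 779 in STREP animals. The groups overlapped, and the log2 fold change of 0.24 ± 0.28 had a 95% interval from -0.31 to 0.79. Syt2 had 1025, 1347 and 1222 in Control and 775, 1032 and 669 in STREP animals. STREP replicate 2 reached the range of the Control animals while the other two lay below it. The log2 fold change of Syt2 was -0.54 ± 0.21 (95% interval from -0.95 to -0.12), and it was not called. Without STREP replicate 2 it was called lower (-0.73).

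Syt11 and Syt4 are close relatives whose first C2 domain lacks a residue needed for binding calcium, and both have been placed on the Golgi, on dense-core vesicles or on other non-synaptic membranes. Syt11 had 2109, 2408 and 1792 normalised counts in Control and 2326, 1743 and 2223 in STREP animals. Its group means were 2103 ± 308 and 2097 ± 311, and its log2 fold change was -0.0048 ± 0.18, with a 95% interval from -0.36 to 0.35. Syt4 went in the direction opposite to Syt6. It had 84.1, 17.9 and 39.6 normalised counts in Control and 114.5, 117.7 and 133.1 in STREP animals. The groups did not overlap, although Control animals differed widely among themselves, with a coefficient of variation of 71.6% against 8.19% in STREP animals. The log2 fold change of Syt4 was 1.36 ± 0.55, with a 95% interval from 0.27 to 2.45, and it was not called. Without Control replicate 1, the highest of the Control animals, Syt4 was called higher (2.08).

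Syt7, a slow, high-affinity calcium sensor linked to asynchronous release and lysosome exocytosis, was close to the floor. Its counts were 19, 0 and 19 in Control and 14, 3 and 6 in STREP animals, and Control replicate 2, at 0, allowed up to 2.55 normalised counts. A difference was not detectable at this depth, with a 95% interval of the log2 fold change from -2.71 to 2.98. Syt14, an atypical synaptotagmin that lacks the residues for binding calcium, was also low. It had 97, 51.9 and 37 normalised counts in Control and 45.3, 25.9 and 41.9 in STREP animals. The groups overlapped, Control replicate 1 stood above the other animals, and the log2 fold change was -0.73 ± 0.59 (95% interval from -1.88 to 0.43).

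Across the 9 genes, 2 were called, both lower and 0 higher, against 1.37% of the 16250 genes tested called lower and 1.87% called higher. These were the genes the selection was based on, so nothing is read from the count, and the other 7 were not called by DESeq2 or by edgeR with or without a count filter. The groups did not overlap for 3 of the 9 genes, 2 lower and 1 higher, against 8.63% of all genes tested lower, 9.12% higher and 17.8% in either direction. Fold changes were negative for 6 of the 9, with a median of -0.20, beside 0.0069 for all genes tested. Both figures include Syt6 and Mctp1, which were chosen for low fold changes, so nothing is read from them. All 9 genes entered the test after DESeq2's filter on low counts, and 8 had a mean normalised count of at least 10.

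**Figure D2:**
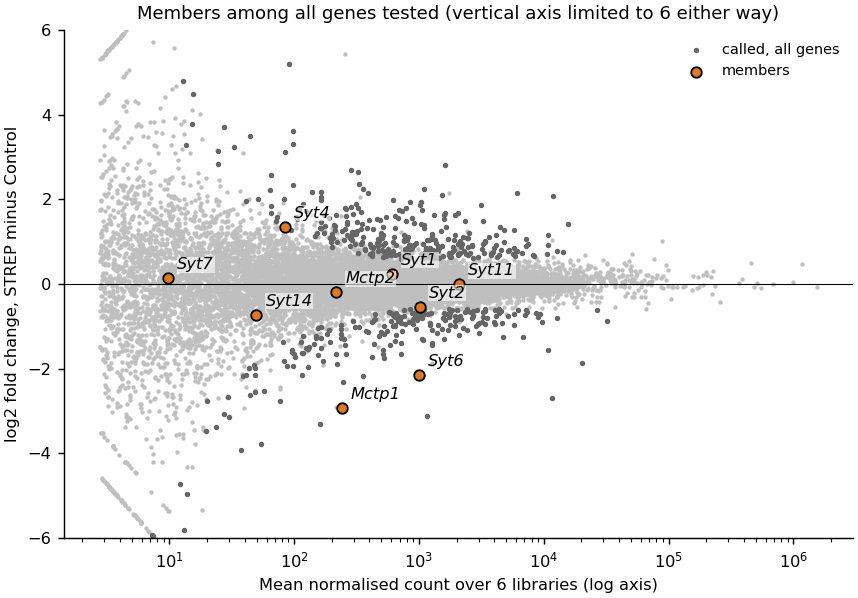
Log2 fold change, STREP minus Control (vertical axis, limited to 6 either way), against the mean normalised count over the 6 libraries (horizontal axis, log scale) for 16250 genes tested, with called genes in dark grey and the 9 genes in orange. Syt6 (-2.14) and Mctp1 (-2.93) lie at the lower edge of the cloud at their mean count, while Syt7 and Syt14 sit where the scatter is wide.

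The share of Syt6 within the synaptotagmin counts describes the same values without scaling between libraries. Syt6 contributed 29.0% (exact Clopper-Pearson 95% interval 28 to 29.9%), 26.1% (25.1 to 27.2%) and 31.9% (30.8 to 33.1%) of the counts over the 7 synaptotagmins in the Control animals. In the STREP animals it contributed 8.85% (7.90 to 9.87%), 9.46% (8.50 to 10.5%) and 8.52% (7.51 to 9.61%). No interval of one group reached those of the other. The intervals cover counting error only. Counts of Syt6 per count of Syt11 went from between 0.650 and 0.995 in Control to between 0.162 and 0.203 in STREP animals. Counts of Syt6 per count of Syt1 went from between 2.58 and 3.94 to between 0.461 and 0.756. Per count of Syt2 the shift was smaller, from between 1.16 and 1.48 to between 0.343 and 0.537.

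**Figure D3:**
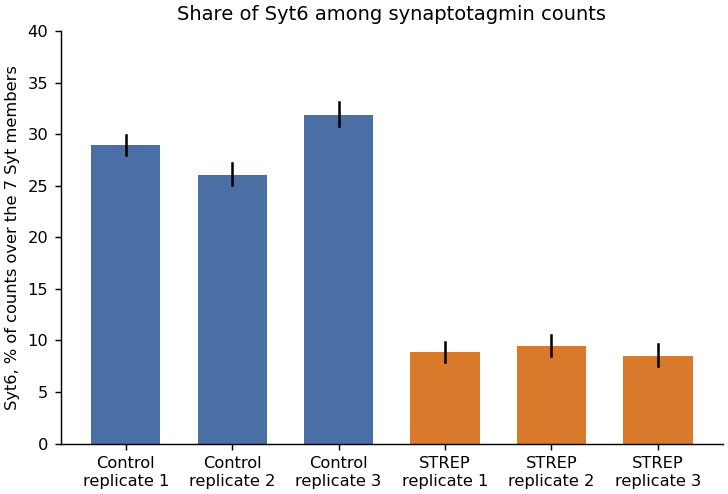
Share of Syt6 among the counts over the 7 synaptotagmin members in each library (vertical axis, percent, from 0), with Control libraries in blue, STREP libraries in orange and exact binomial 95% intervals as black lines. Control libraries lie between 26.1% and 31.9% and STREP libraries between 8.52% and 9.46%.

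Syt6 and Mctp1 were lower in the males and in the single pair of females. The ratio of mean normalised counts between STREP and Control males was -2.05 on the log2 scale for Syt6 and -2.74 for Mctp1. In the females it was -2.31 and -3.50. For Syt2 the corresponding values were -0.39 and -0.87, and for Syt4 they were 1.19 and 1.75. The sign differed between the sexes for Syt11 (-0.15 in males and 0.31 in females), Syt14 (-1.06 and 0.18) and Syt7 (0.91 and -0.86). Of these, Syt7 was close to the floor, and every female value rests on 1 animal per group. A difference between the sexes is not read from these signs.

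Because the tissue is mixed, lists of marker genes were read beside these values. Of 29 HC genes tested, 8 were called lower and 1 higher (Gfi1), with a median log2 fold change of -0.40. At an unadjusted p under 0.05 in DESeq2, 14 were lower and 1 higher. The share of all genes at this threshold was not worked out, so nothing is read from such counts, here or for the lists below. Summed normalised counts of the HC genes ran from 154800 to 164428 in Control and from 130653 to 185450 in STREP libraries. Such sums follow the most counted genes of a list, here Ush1c, with 101030 in STREP replicate 3. The HC genes called lower were Chrna10, Cacna1d, Grxcr2, Loxhd1, Cib2, Strc, Pjvk and Tmc2. Tmc2, a subunit of the mechanotransduction channel, had the lowest fold change of the list, at -1.71, above those of Syt6 and Mctp1. With edgeR, Chrna10, Cacna1d, Grxcr2, Loxhd1 and Tmc2 were called lower. Of 7 genes of type I HCs tested, the cells enclosed by a calyx, 6 were called lower, with a median of -1.44. However, 5 of these 7 belong to the study's own list of genes lowered in all its models, drawn in part from these animals. The study also names Pvalb, and Myo7a and Lhfpl5 of the HC list, among genes lowered in these animals and in another of its models. The sums of the type I genes ran from 299339 to 403585 in Control and from 178035 to 325513 in STREP libraries. They were mostly Spp1, which was not called, with means of 296931 in Control and 220265 in STREP animals. Of 7 genes of type II HCs 0 were called by DESeq2 or edgeR, with 1 lower and 1 higher at an unadjusted p under 0.05, a median of 0.040 and sums from 14879 to 15513 in Control and from 14551 to 17924 in STREP libraries. Fold changes of Syt1, Syt4, Syt7, Syt11 and Mctp2 were above the median of the HC list, and those of Syt2, Syt6, Syt14 and Mctp1 were below it.

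When libraries were scaled to 28 genes of the HC list in place of all genes, the median over all genes tested moved to 0.37 on the log2 scale, and the share of called genes that were lower went from 42.3% to 3.99%. On this scale Syt6 stood at -1.77 ± 0.19 and Mctp1 at -2.59 ± 0.35. The groups still did not overlap for either gene. Relative to the shifted median of all genes these values were -2.15 and -2.96, but this subtraction largely undoes the rescaling. Both genes were chosen on these libraries, so nothing is read from either statement. With libraries scaled to the HC list, STREP animals held on average 29.3% of the Control mean of Syt6 and 16.4% of that of Mctp1. Syt2 moved to -0.18, Mctp2 to 0.19 and Syt11 to 0.37, and Syt4, at 1.74, was called higher, as were 15.4% of all genes tested on this scale (1973 of 12776). Under median-of-ratios scaling, 0 of the 29 HC genes had a fold change below that of Syt6. Syt6 was chosen for its low fold change, so nothing is read from this count.

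**Figure D4:**
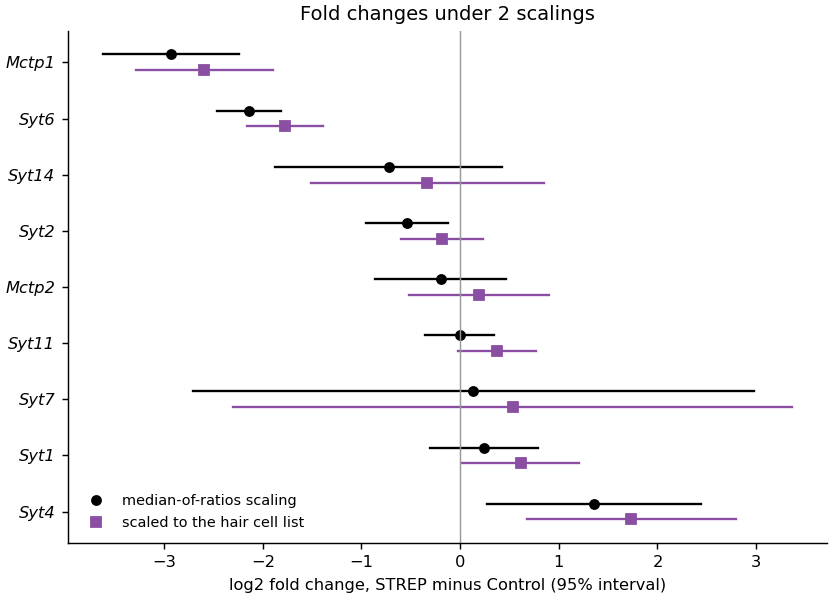
Log2 fold change, STREP minus Control, with 95% intervals (horizontal axis) of the 9 genes (vertical axis), under median-of-ratios scaling (black circles) and with libraries scaled to the HC list (purple squares). Syt6 and Mctp1 lie below -1 throughout their intervals under both scalings, and Syt7, Syt11, Syt14 and Mctp2 have intervals that span 0 under both.

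Markers of other cells that could contribute synaptotagmin transcripts were also present. Of 15 genes of afferent neurons tested, 0 were called lower and 1, Tubb3, was called higher by DESeq2 but not by edgeR, and Pou4f1, a defining factor of sensory neurons, had 0 counts in every library. At an unadjusted p under 0.05 in DESeq2, 1 of these genes was lower and 2 were higher. Their summed normalised counts ran from 6466 to 6815 in Control and from 6063 to 6401 in STREP libraries. Of 20 supporting cell genes, Sox10 and Fgfr3 were called higher by both tools and 0 lower, and at an unadjusted p under 0.05 in DESeq2 8 were higher and 0 lower, with a median log2 fold change of 0.28 and sums from 704680 to 885641 in Control and from 788806 to 1359250 in STREP libraries. Of 10 Schwann cell and myelin genes, Prx was called lower by DESeq2 but not by edgeR, and at an unadjusted p under 0.05 in DESeq2 5 were lower and 0 higher, with 9 negative fold changes, a median of -0.36 and sums from 236034 to 319959 and from 123033 to 257930. DESeq2 and edgeR called 0 of 5 melanocyte and 0 of 9 macrophage genes, where 2 melanocyte genes were lower and 1 macrophage gene was lower and 2 higher at an unadjusted p under 0.05 in DESeq2. The melanocyte sums ran from 27264 to 28268 in Control and from 27915 to 39978 in STREP libraries. They were mostly Pmel, at a log2 fold change of 0.29, while 4 of the 5 genes were negative and the median was -0.96. The macrophage sums ran from 3831 to 5523 in Control and from 4661 to 5531 in STREP libraries. The counts at an unadjusted p have no share over all genes beside them, so nothing is read from them. The part of these cells in the values of the calcium sensors was not tested.

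The other C2 proteins of exocytosis and membrane contact were read from a list of 40 symbols that does not include the 9 genes. Of 34 genes tested, 1 was called lower, or 2.94%, against 3.24% of all genes called in either direction, and 0 were called higher. At an unadjusted p under 0.05, 4 were lower and 5 higher, and edgeR with or without a count filter also called 0 higher. The median log2 fold change was 0.091. The called gene was Syt13, an atypical synaptotagmin without the residues for binding calcium. Mean normalised counts of Syt13 were 3908 ± 132 in Control and 2044 ± 415 in STREP animals, a log2 change of -0.94 ± 0.17 with no overlap (DESeq2 adjusted p = 4.97e-06). Scaled to the HC list, Syt13 stood at -0.56, still without overlap, and was not called. Relative to the median of all genes it was -0.93, but this subtraction largely undoes the rescaling. On the scale of the HC list, 6 of 21 C2 genes tested (28.6%) were called higher, against 15.4% of all genes tested.

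Of the branch of Syt6, Syt3 had means of 268 ± 60.4 normalised counts in Control and 284 ± 7.11 in STREP animals, a log2 change of 0.083 ± 0.27. Syt10 had 14 counts in Control replicate 3 and 0 in the other libraries, so no fold change is given. The most counted genes of this list besides Syt13 were Otof and Sytl3. Otof, the gene of otoferlin, averaged 28893 ± 628 in Control and 25605 ± 3132 in STREP animals, a log2 change of -0.17 ± 0.13 (DESeq2 adjusted p = 0.701). Sytl3, a Rab27-binding synaptotagmin-like protein, averaged 2021 ± 238 and 1880 ± 114, a log2 change of -0.10 ± 0.15 (DESeq2 adjusted p = 0.908).

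The core of the fusion machinery on which these sensors act was read from a further list. Of 29 genes of SNARE proteins, their regulators and vesicle proteins tested, DESeq2 called 0, as did edgeR with and without a count filter, and 1 was lower and 2 higher at an unadjusted p under 0.05. The median log2 fold change was -0.0099 and the range ran from -0.51 to 0.84. Scaled to the HC list, 5 of 27 genes tested (18.5%) were called higher, against 15.4% of all genes tested on that scale. The 3 most counted genes of the list were Napa, a cofactor of SNARE disassembly, at -0.12 ± 0.15, and the vesicle SNAREs Vamp2, at 0.17 ± 0.19, and Vamp3, at -0.0099 ± 0.17. Snap25, the partner SNARE on the plasma membrane, had mean normalised counts of 1159 ± 106 in Control and 1135 ± 183 in STREP animals.

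**Figure D5:**
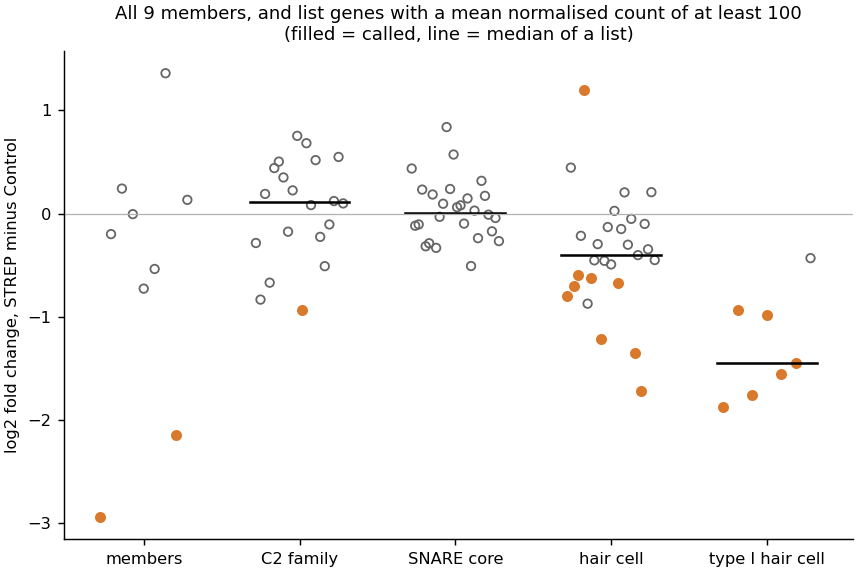
Log2 fold change, STREP minus Control (vertical axis), for the 9 calcium sensor genes and for genes of 4 lists that averaged 100 or more normalised counts (20 C2 family, 26 SNARE core, 27 HC and 7 type I HC genes), with called genes filled in orange, the rest as open circles and the median of each list as a black line. Genes of the C2 family run from -0.94 (Syt13, the 1 called) to 0.75 and those of the SNARE core from -0.51 to 0.84. Syt6 and Mctp1, which were chosen for their low fold changes, lie below every gene of the lists shown.

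The genes whose pattern over the 6 libraries was most like that of Syt6 were found by the root mean square difference of log2(normalised count + 1), each gene set relative to its own Control mean, among the same 12131 genes. They were Adam11 (0.220), which is also in the type I HC list and codes for a synaptic protein of the ADAM family without protease activity, Bank1 (0.231), a scaffold protein best known from B cells, and Car7 (0.262), a cytosolic carbonic anhydrase. STREP animals held on average 27.3%, 20.2% and 27.2% of the Control mean of these genes. The genes most like Mctp1 were AABR07065625.1 (0.272), AC132671.2 (0.351), which the study calls Vsig10l2, and AABR07072356.1 (0.382), with 11.4%, 15.4% and 10.2% of the Control mean. The same measure between Syt6 and Mctp1 was 0.721. It also counts the difference in the size of the fall. The genes named above are the nearest by selection, so nothing is read from their lower values. Mctp1 counts per Syt6 count ran from 0.227 to 0.324 in Control and from 0.104 to 0.232 in STREP animals, ranges that overlapped through STREP replicate 2.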

How the data were processed

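RNA-seq libraries (SMART-seq2, which does not keep strand, so reads of overlapping antisense genes cannot be told apart) were made from 6 rats. The authors aligned reads to Rnor6.0 with STAR 2.5.3a, quantified genes with RSEM 1.3.0, as the submitters' processing notes give it, and deposited expected counts per gene, unscaled. All deposited values were whole numbers, so rounding changed none. Groups were taken from the treatment labels, and replicates were numbered in order of deposition. No pair of replicates agreed within sampling noise (chi-square per degree of freedom from 49.6 to 171 over gene counts).

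All genes were fitted in R 4.3.3 with DESeq2 1.42.0 (group as the only factor, median-of-ratios size factors, Wald test, independent filtering at 0.05). DESeq2 and the thresholds for calling were those of the study, in a later version of the tool. The fit was tested on simulated counts. The members and lists were chosen with earlier results of these data known. Besides the members, text names called genes and the 3 most counted genes of the C2 family and SNARE core lists, called HC genes, and the 3 genes most like Syt6 and Mctp1. Syt3, Syt10, Snap25, genes called in other marker lists and genes that joined the calls under an alternative were named after their values were seen. Alternatives were edgeR 4.0.16, other scalings and filters, sex as a covariate, males alone, thinning, and leaving out each animal. Promoters were matched by symbol, with an entry for 8 of the 9 genes. Protein sequences and transcript lengths were not used here.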

Additional observations from a re-analysis of the deposited data

How the results depend on the processing

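Syt6 and Mctp1 were called lower in all 16 alternatives, which reuse the libraries they were chosen on and give no independent support. Syt6 ranged from -2.19 to -2.07 and Mctp1 from -3.36 to -2.73 with each animal left out. Scaling to the HC list moved Syt6 to -1.77 and raised the number of the 9 genes called higher from 0 to 1 (Syt4), while genes called higher in all went from 304 to 1973. With each animal left out, 2 to 3 of the 9 genes were called lower and 0 to 1 higher, the additions being Syt2 without STREP replicate 2 and Syt4 without Control replicate 1. Syt7, Syt11 and Mctp2 changed direction with single animals left out, from -0.62 to 0.80, from -0.11 to 0.11 and from -0.53 to 0.014.

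The number of genes called, 527 with DESeq2, was 264 with edgeR and a count filter and 295 with edgeR and no filter. It was 309 with library totals as size factors and 2055 with scaling to the HC list. On the scale of the HC list, 6 genes of the C2 family (28.6%) and 5 of the SNARE core (18.5%) were called higher and 0 lower. Of all genes tested on that scale, 15.4% were called higher. With each animal left out in turn, the number of genes called ran from 424 to 517. Of the C2 family, 1 to 2 genes were called lower with each animal left out, Dysf joining Syt13 without Control replicate 1. Of the SNARE core, 0 to 1 were called lower and 0 to 1 higher with each animal left out. Stx3 was called higher when libraries were thinned to the smallest total (1 call in the list) and without STREP replicate 2, where Stxbp5 was called lower, and Cplx2 was called higher without Control replicate 1. The cause was not tested. Of the calls, 42.3% were lower, which ran from 35.7% without Control replicate 1 to 51.4% without STREP replicate 1. No paired analysis was possible because the labels give no replicate numbers shared between groups. Depth limits the values of Syt7 and, to a lesser degree, of Syt14 and Syt4, which had at most 158 counts in any library.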

Other observations

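The spread between animals was itself uneven among the calcium sensors. Syt6 varied least, with a coefficient of variation of 8.82% in Control and 5.30% in STREP animals, and Syt11 had 14.6% and 14.8%. Mctp1 varied more in STREP than in Control animals, at 43.4% and 19.3%, as did Mctp2, at 37.1% and 19.3%, and Syt2, at 22.6% and 13.5%. Mctp1 had 25 to 76 counts in STREP libraries, where counting error weighs more than at its 493 to 596 counts in Control. Syt4 varied less in STREP than in Control animals, as did Syt14, at 27.4% and 50.4%. With 3 animals per group these differences in spread were not tested.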
